A study of Mus musculus with 378 samples.

Results

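Npy, Pyy and Ppy, the 3 genes of the neuropeptide Y family of the mouse, were found by their gene symbols among the 22180 genes of the deposited count table. They were chosen by symbol, with the wide spread of Npy between mice and the sex differences of Pyy and Ppy in these same data already known, so the values on spread and sex describe the genes and give no independent support. RNA of pancreatic islets had been sequenced from Diversity Outbred mice, a stock bred from inbred founder strains so that no pair of animals has the same genome. Every library came from a different mouse, so p-values measure the spread between mice. All mice had received a high-fat, high-sugar diet with 45% fat, so the sexes were compared on that diet alone, and the labels used here give no age. The titles number the mice in stretches of a single sex, so 4 bands of 100 mouse numbers, starting at 21, were used to see whether a level moved with the number. The females numbered 46, 46, 49 and 47 in bands 1 to 4, and the males 45, 48, 50 and 47. The labels do not say what a number stands for, and in each band the numbers of nearly all females came before those of the males, so sex and order within a band cannot be told apart.

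The family consists of short, amidated peptides that act on the Y receptors, which couple to inhibitory G proteins. Neuropeptide Y is abundant in brain and sympathetic nerves and is also made by islet cells, where it restrains insulin secretion. Peptide YY is released by enteroendocrine cells of the gut and by several islet cell types, and pancreatic polypeptide is the hormone of the PP (gamma) cells of the islet. Pyy and Ppy lie beside each other in the genome, and Npy lies on another chromosome.

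Npy (ENSMUSG00000029819) lay on the plus strand at chr6:49822710-49829507, Pyy (ENSMUSG00000017311) on the minus strand at chr11:102106676-102107832 and Ppy (ENSMUSG00000017316) on the minus strand at chr11:102099930-102101319 (GRCm38). The coding stretch that each gene has for its hormone is shown because it is what the 3 genes share and what the counting of reads had to tell apart. It was read from the GENCODE M21 transcripts as the 36 codons that end before the amidation and cleavage signal. Capitals mark the bases that were the same in all 3 genes.
Npy: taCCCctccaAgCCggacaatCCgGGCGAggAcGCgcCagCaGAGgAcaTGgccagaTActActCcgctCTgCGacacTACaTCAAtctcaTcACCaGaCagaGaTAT
Pyy: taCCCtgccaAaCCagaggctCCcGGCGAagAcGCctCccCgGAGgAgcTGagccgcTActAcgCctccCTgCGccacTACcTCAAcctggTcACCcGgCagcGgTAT
Ppy: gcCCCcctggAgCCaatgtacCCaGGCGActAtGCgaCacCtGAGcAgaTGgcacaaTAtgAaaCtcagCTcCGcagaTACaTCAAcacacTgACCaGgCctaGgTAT
In 49 positions (45.4%) the base was the same in all 3. Npy and Pyy shared 76 of them (70.4%), Npy and Ppy 61 (56.5%), and the neighbours Pyy and Ppy 58 (53.7%). The longest identical run between any pair was 8 bases, and every count of the 3 genes in the deposited table was a whole number, with none at 0 in any library.

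The promoters are shown because Pyy and Ppy moved together across mice, as given further on, and no such relation was found for Npy. Each sequence covers 250 bases before to 50 bases after the annotated start (RefSeq, GRCm38.p6), at chr6:49822460-49822759 on the plus strand for Npy, chr11:102107783-102108082 on the minus strand for Pyy and chr11:102101270-102101569 on the minus strand for Ppy. Capitals mark the letters TATAA on the sense strand.
Npy: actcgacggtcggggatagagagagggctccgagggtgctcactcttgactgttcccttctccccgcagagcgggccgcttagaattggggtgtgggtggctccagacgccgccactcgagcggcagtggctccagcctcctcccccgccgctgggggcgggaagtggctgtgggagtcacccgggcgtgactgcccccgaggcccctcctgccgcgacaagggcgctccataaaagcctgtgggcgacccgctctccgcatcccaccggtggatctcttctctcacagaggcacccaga
Pyy: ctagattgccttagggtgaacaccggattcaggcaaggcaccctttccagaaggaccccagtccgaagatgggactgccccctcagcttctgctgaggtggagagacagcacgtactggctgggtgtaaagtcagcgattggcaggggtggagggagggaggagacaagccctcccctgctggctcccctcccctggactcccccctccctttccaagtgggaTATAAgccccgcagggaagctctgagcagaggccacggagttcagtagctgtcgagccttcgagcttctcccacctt
Ppy: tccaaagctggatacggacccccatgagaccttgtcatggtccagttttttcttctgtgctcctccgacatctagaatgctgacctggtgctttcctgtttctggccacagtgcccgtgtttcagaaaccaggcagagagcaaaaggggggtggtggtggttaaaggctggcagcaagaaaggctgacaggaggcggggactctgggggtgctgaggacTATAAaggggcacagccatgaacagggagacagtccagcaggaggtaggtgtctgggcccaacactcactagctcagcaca
TATAA began at position -27 of Pyy and at -31 of Ppy, and these letters were not in the Npy window. They were present in 17.5% of the 32851 RefSeq promoters of that length. Only these exact letters were searched, so near matches, such as CATAA in the Npy window, were not counted. Among motifs searched on both strands, CANNTG was found once, in Pyy at -36 (72.3% of all promoters hold it), and TAATTA (5.3%) and TGACG (20.8%) were in none of the 3. The Npy window held 68% G and C and 24 CG dinucleotides, against 60.7% and 8 in Pyy, 55.7% and 4 in Ppy, and medians of 52.7% and 7 over all promoters. These are matches of letters in the window and say nothing of binding.

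The libraries held 15.1 to 68.8 M counts each, with a median of 34.8 M, and those of band 4 were the shallowest as a group (median 24 M counts). Markers of the labelled tissue were present: the 13 listed beta cell markers summed to a median of 135570 CPM (counts per 1 M counts of the library) in females, against 162220 CPM in males. The 13 acinar markers, which mark exocrine tissue carried along with islets, summed to 53.4 to 40540 CPM in females and 87.3 to 62295 CPM in males. Library composition also moved with the bands: the slope of log2 CPM on the GC content of transcripts (called the GC index here) had medians of -0.129, -0.110, -0.111 and 0.319 in bands 1 to 4. In 2 female libraries Xist was at or under the highest male level. Because these are bulk islets, fewer cells of a type and less RNA per cell cannot be told apart in any level given here.

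Per length, Ppy was the most abundant of the 3, Pyy came next and Npy was far lower. The median level per kilobase of exon was 2027 CPM for Ppy, 547 CPM for Pyy and 28.3 CPM for Npy, which placed them 14th, 41st and 1348th of 22076 genes with a known length. Within single mice, Ppy exceeded Pyy per kilobase in all but 5, which were females of band 4, and Pyy exceeded Npy in all but 2, which were males. The order of the 3 levels was thus the same in nearly every mouse.

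Npy differed between mice far more than its relatives. Its level was 0.778, 20.7 and 166.6 CPM (lowest, median, highest) in females, against values of 0.0312, 11.7 and 192.6 CPM in the males. The means were 36.4 ± 37.8 CPM in the females, against 23.98 ± 30.6 CPM in the males (SD over all mice of the sex). The sexes overlapped over most of the range, and the mice at its very low end were males. Under 1 CPM lay 5 females and 24 males, and at 100 CPM or above lay 17 females and 5 males. The mouse at the 90th percentile had 60.6 times the Npy level of the mouse at the 10th percentile, against ratios of 5.26 for Pyy and 3.92 for Ppy. On the log2 scale, with mice grouped in steps of 1 unit, the largest groups lay between 5 and 6 (68 mice) and between 4 and 5 (61 mice), and each of the 4 steps from 0 to 4 still held 36 to 41 mice. The distribution thus had a broad low side and a short high side.

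With sex and band removed, the SD of log2 CPM between mice was 2.29 for Npy, 0.735 for Pyy and 0.743 for Ppy, against a median of 0.237 over the 11108 genes with a mean of at least 5 CPM. By edgeR's gene-wise dispersion over its trend with abundance, which allows for counting noise, Npy ranked 76th, Pyy 430th and Ppy 472nd of those genes. Sex took 3.90% of the variance of log2 Npy and band 0.502%, which left 95.04% to differences between mice of the same sex and band. For Ppy the shares were 8.98% for sex, 0.517% for band and 90.4% for the rest. For Pyy they were 12.7%, 28.7% and 58.4%.

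Pyy ranged from 126.5 through a median of 437.7 to 2061 CPM in females, against 26.5, 273.4 and 1161 CPM in males. The mean level of Pyy was 535.3 ± 339.99 CPM in the females, against 332.6 ± 217.9 CPM in the males (SD over all mice of the sex). Ppy had 294.8, 1155 and 3217 CPM (lowest, median, highest) in females, against 134.6, 803.9 and 3831 CPM in males. On average Ppy had 1251 ± 557 CPM in the females, against 938 ± 548 CPM in the males (SD over all mice of the sex). For both genes the sexes overlapped over most of the range, and for Ppy the 2 highest libraries were male. The same 2 male libraries of band 1 were the lowest for Pyy (26.5 and 46.1 CPM) and for Ppy (134.6 and 141.5 CPM), and they were also the deepest of the series, with 68.8 and 68.1 M counts. Without those 2 libraries the sex differences given next were 0.62 for Pyy, 0.53 for Npy and 0.38 for Ppy, and the r between Pyy and Ppy was 0.667.

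**Figure D1:**
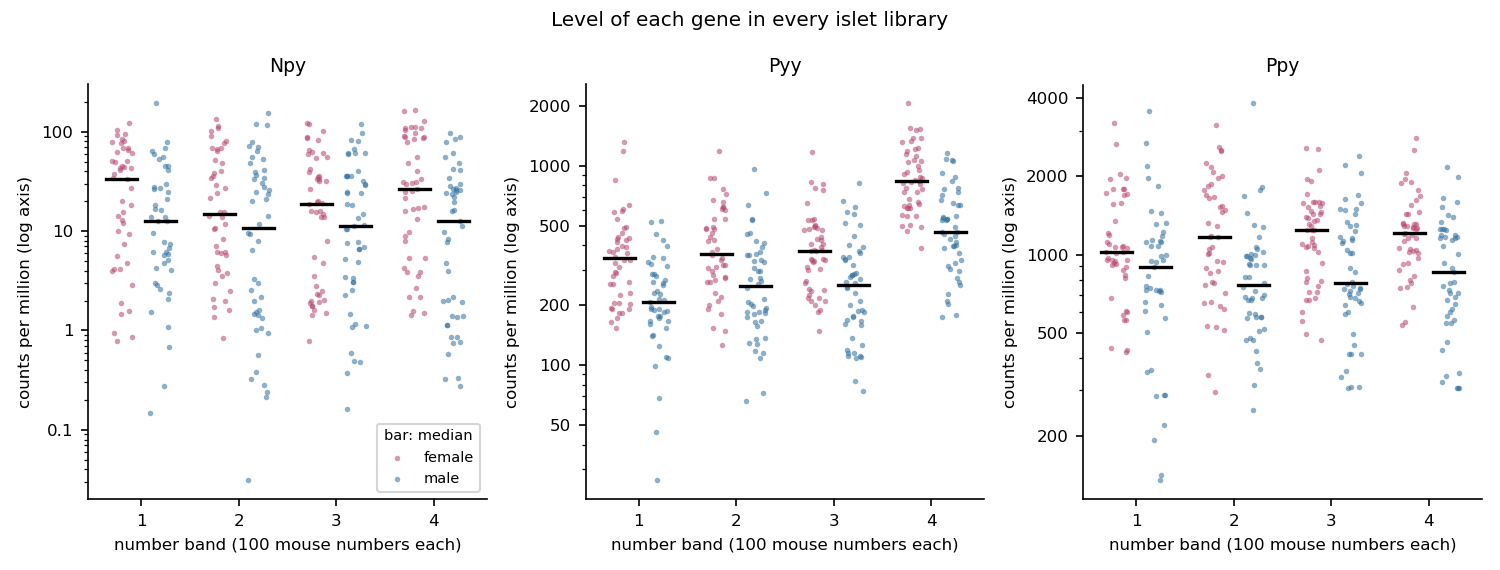
Levels in CPM of Npy, Pyy and Ppy (log axes) in every library, by number band, with females left of males in each band and a bar at each median. The points of Npy spread over a much longer stretch of the log axis than those of Pyy and Ppy, and Pyy is higher in band 4, where its medians are 843.9 CPM in females and 464.6 CPM in males.

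All 3 genes were higher in females than in males. With the band as covariate, the log2 fold change (female minus male) was 0.63 ± 0.075 for Pyy, 0.54 ± 0.198 for Npy and 0.39 ± 0.0748 for Ppy (estimate ± SE). The adjusted p-values over all 16927 genes tested were 3.69e-14, 0.0156 and 2.68e-06 (edgeR quasi-likelihood F test, Benjamini-Hochberg). Sex differences were common in these islets: 50.6% of the genes tested were called, 21.7% of them all as higher and 28.8% as lower in females, so being called says little about the family by itself. The female libraries exceeded the males in the fitted value of each band for all 3 genes. Fitted in bands 1, 2, 3 and 4 alone, Pyy gave 0.70, 0.57, 0.53 and 0.74 and was called in every band. Ppy gave 0.22, 0.57, 0.36 and 0.40 and missed the threshold in band 1 (adjusted p = 0.415) and in band 3 (adjusted p = 0.0506). Npy gave 0.62, 0.27, 0.31 and 1.01 and passed it in band 4 only (adjusted p = 0.0462, against 0.256, 0.681 and 0.624 in bands 1 to 3). Of all genes, 16.9%, 27.7%, 15.5% and 25.4% were called in bands 1 to 4. A test of the difference itself, the interaction of sex with band, called none of the 3 (adjusted p = 0.778 for Npy, 0.862 for Pyy and 0.709 for Ppy, with 1.09% of all genes called by edgeR), and its unadjusted p-values were 0.521, 0.687 and 0.411.

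Markers of the other endocrine cells moved with sex in the same fit, where 21.7% of all genes were called higher and 28.8% lower in females. Of the alpha cell markers 7 of 8 were higher in females and 1 lower, with a median log2 fold change of 0.74, and of the delta cell markers 4 of 5 were higher and 1 lower (median 0.50). Of the human gamma cell markers 5 of 7 tested were higher and none lower (median 0.19), and of the beta cell markers 10 of 13 were lower and none higher (median -0.18). The summed alpha markers ran from 6221 through 23994 to 72259 CPM in females, against 2192, 11455 and 48451 CPM in males. The summed delta markers ran from 437.3 through 1541 to 8070 CPM in females, against 134.0, 1072 and 4875 CPM in males. When the mean levels of the alpha, delta, beta and acinar lists were added to the fit, the female excess of Npy was 0.63 ± 0.247 and still called (adjusted p = 0.0424). That of Pyy was 0.11 ± 0.0730 (adjusted p = 0.286) and that of Ppy was -0.01 ± 0.0819 (adjusted p = 0.960), so neither of these calls remained. The part of the marker lists in the sex difference was not tested beyond this fit, and the lists share cells with the genes themselves: Pyy and Ppy are made by some of the cells that the markers mark.

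**Figure D2:**
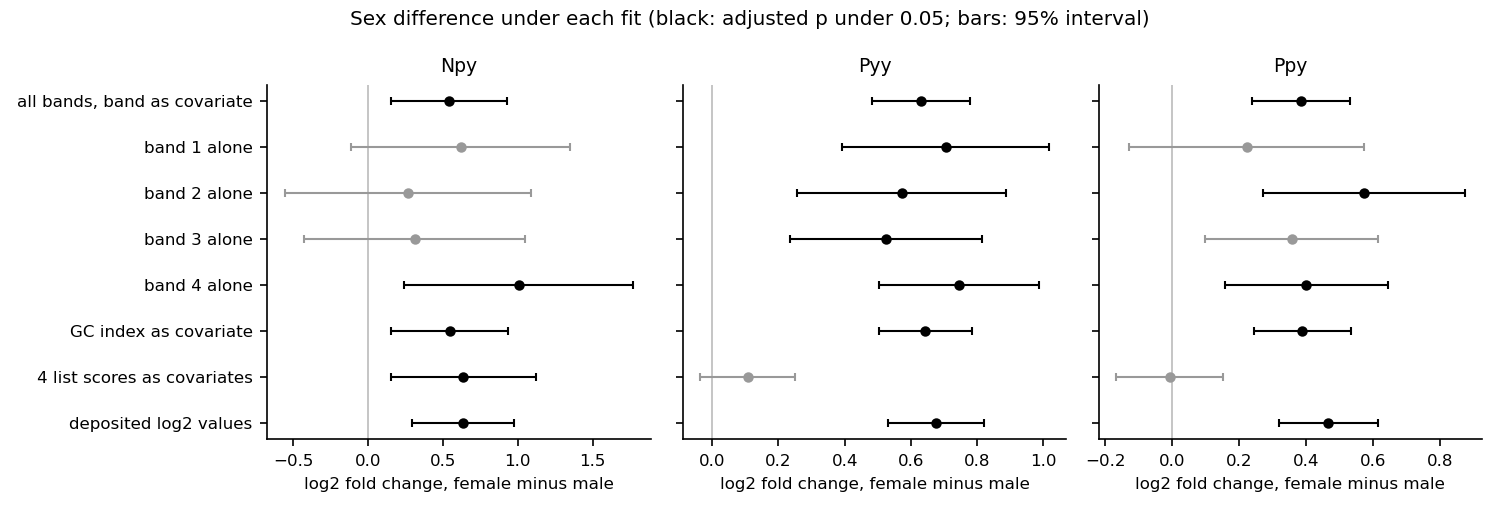
Log2 fold change, female minus male, of the 3 genes under 8 fits, with 95% intervals, black where the adjusted p is under 0.05 and grey otherwise. The estimates lie above 0 in every fit drawn except that of Ppy with 4 list scores as covariates (-0.01), and the Pyy estimate with those scores is 0.11.

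The proportion of Pyy to Ppy also differed between the sexes. The log2 ratio of their counts averaged -1.34 ± 0.749 in females and -1.55 ± 0.748 in males (SD over all mice of the sex). With the band removed the difference was 0.21 ± 0.060 (SE; 95% interval 0.10 to 0.33; two-sided permutation test within bands, p = 0.00044). Within bands 1 to 4 it was 0.30, 0.06, 0.18 and 0.32, with p = 0.0129, 0.640, 0.154 and 0.00397 (permutation tests). The comparison was added after the levels had been seen. With the 4 list scores in the fit it was 0.11 (permutation p = 0.142).

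Pyy was higher in band 4 than in the other bands, in both sexes. Its medians in bands 1 to 4 were 343.5, 362.9, 372.8 and 843.9 CPM in females, and 207.2, 249.2, 252.2 and 464.6 CPM in males. Relative to band 1, the log2 difference was 0.18 in band 2, 0.16 in band 3 and 1.21 in band 4 (edgeR, adjusted p = 2.63e-31). Band differences were found in 87.9% of all genes tested, and without band 4 Pyy did not pass (adjusted p = 0.335). Neither Npy (adjusted p = 0.829) nor Ppy (adjusted p = 0.967) was called between bands. The medians of Npy in bands 1 to 4 were 33.6, 14.8, 18.6 and 26.7 CPM in females and 12.5, 10.8, 11.3 and 12.6 CPM in males. Those of Ppy were 1023, 1170, 1242 and 1213 CPM in females and 897, 765, 776 and 854 CPM in males. Pyy and Ppy transcripts have nearly the same GC content (57.3% and 57%, with 53.7% for Npy and a median of 49.2% over genes). Of the 3, Pyy was called between bands. In the authors' deposited log2 values no band difference passed for any of the 3 (limma, adjusted p = 1 for each, unadjusted p = 0.644, 0.997 and 0.533 for Npy, Pyy and Ppy). With sex and band removed, the GC index still moved with Pyy (r = 0.321, Spearman's rho = 0.327, permutation p = 1e-05 for each, the smallest that 100000 resamples can give, adjusted p = 6e-05 over 6 relations). It moved less with Ppy (r = 0.139, rho = 0.143, permutation p = 0.00811 and 0.00620, adjusted p = 0.0243 and 0.0186). With Npy it did not pass the threshold (r = 0.0495, rho = 0.0460, permutation p = 0.339 and 0.375). Without the 2 libraries of most extreme index the r values were 0.329, 0.136 and 0.0355. Its part in the band difference of Pyy was not tested.

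Males were the more unlike among themselves by SD, though the difference was not called. The SD of log2 CPM within bands was 2.08 in females and 2.47 in males for Npy, 0.671 and 0.793 for Pyy, and 0.657 and 0.818 for Ppy. Tested on absolute deviations, none of the 3 passed (limma, adjusted p = 0.189, 0.255 and 0.111 for Npy, Pyy and Ppy), and all 3 had an unadjusted p under 0.05 (0.0238, 0.0418 and 0.00870). On the deposited log2 values the SD of Npy was 1.67 in females and 1.74 in males, its difference in mean absolute deviation was -0.08, against -0.32 on log2 CPM, and its unadjusted p was 0.431 (0.0539 for Pyy and 0.0107 for Ppy). Over all genes 4.6% were called, 0.0827% as more and 4.52% as less spread in females.

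Pyy and Ppy went together from mouse to mouse, and no correlation of Npy with either of them passed the test. With sex and band removed, Pearson's r between Pyy and Ppy was 0.686 and Spearman's rho 0.663 (all mice, permutation p = 1e-05 for each, adjusted p = 3e-05 over 3 pairs). In the 8 combinations of sex and band r ran from 0.377, in females of band 4, to 0.810, in males of band 1. It was 0.667 without the 2 libraries farthest in Pyy, and it was 0.587 (permutation p = 1e-05, adjusted p = 3e-05) with the alpha, delta, beta and acinar scores also removed. Of the 38 mice with the highest Pyy, 18 were also among the 38 highest for Ppy, and of the 38 lowest, 20 were shared (47.4% and 52.6%, where 10.1% of all mice make up each tail). For Npy and Pyy, r was 0.0219 and rho 0.00333 (permutation p = 0.676 and 0.949), and for Npy and Ppy r was 0.0260 and rho -0.0123 (permutation p = 0.614 and 0.813). Without the 2 libraries farthest in Npy these r values were 0.00194 and -9.7e-06. The tails of Npy shared 4 high and 6 low mice with those of Pyy, and 2 high and 6 low mice with those of Ppy. Within the 8 combinations r ran from -0.278 to 0.253 for Npy and Pyy and from -0.312 to 0.255 for Npy and Ppy, so its sign was not the same in all groups.

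**Figure D3:**
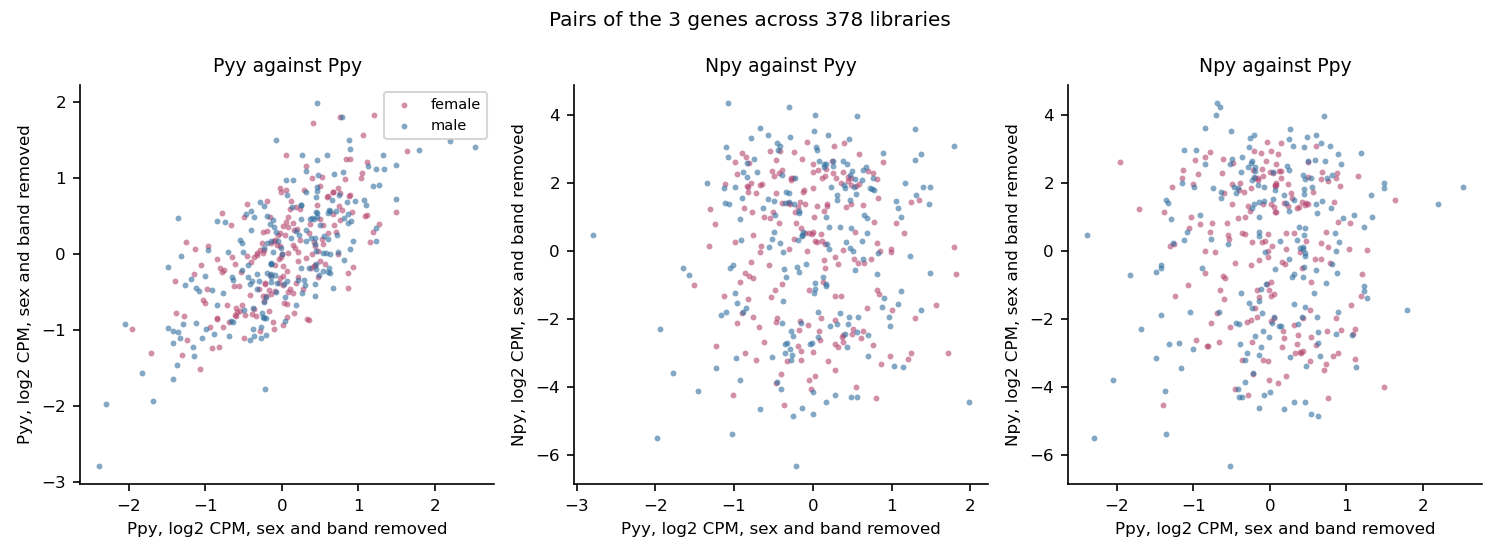
Log2 CPM of each pair of genes with sex and band removed, a point for each mouse, coloured by sex. Pyy and Ppy lie along a rising diagonal (r = 0.686), and both plots of Npy show a cloud without slope (r = 0.0219 with Pyy and 0.0260 with Ppy) that is wide along the Npy axis.

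Across all genes, partial correlations with sex and band removed were called for 3930 genes with Npy (23.2% of 16926), 6921 with Pyy (40.9%) and 5814 with Ppy (34.3%; limma with trend, Benjamini-Hochberg). Positive and negative calls were near balance: 11.5% and 11.8% of genes for Npy, 21.3% and 19.6% for Pyy, and 18.8% and 15.6% for Ppy. With calls this frequent, the size of r tells more than the call. The genes named next have the highest and lowest r and the same sign in all 8 combinations, and since they were picked for their r, the values are a description.

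The genes most like Npy were its neighbours on chromosome 6. Dfna5, which encodes the pore-forming protein gasdermin E, had r = 0.570 (0.423 to 0.685 over the 8 combinations) and begins 0.36 Mb beyond Npy. Mpp6, a membrane-associated guanylate kinase scaffold, had r = 0.536 (0.288 to 0.723) and begins 0.28 Mb beyond. The 2 genes overlap each other, at chr6:50188888-50263862 and chr6:50110241-50198939, and the strand setting of the counting was not given in the sources used here, so reads in the overlap may have been split or shared and the 2 values may not be independent. Neither moved that way with Pyy (-0.0817 for Dfna5, -0.234 for Mpp6) or Ppy (-0.0636 and -0.105). On the other side, Fam221a, the nearest tested gene before Npy at a distance of 0.43 Mb, had r = -0.350 with Npy. Further off, Lrrc61 (between 1 and 2 Mb before) had r = 0.347 and the zinc finger gene Zfp783 (1.87 Mb before) -0.333. Positive and negative r thus lay side by side along the region. Of the 3 nearest tested genes on each side, Ccdc126 had r = 0.244, while Tra2a (0.0518) and Osbpl3 (-0.0747) were not called (adjusted p = 0.506 and 0.308).

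The genes most like Npy lay near it more often than those most like Pyy and Ppy, a comparison given here as a description. Of the 20 genes with the largest absolute r to Npy, 7 lay within 5 Mb and 12 on chromosome 6, where 68 and 919 of all 16924 other genes lie. For Pyy and Ppy none of the 20 lay within 5 Mb. The 3 hormone genes were left out of these counts, and the neighbours Pyy and Ppy had r = 0.686 with each other. Of the genes within 1 Mb of Npy 9 of 16 were called (median absolute r 0.166), of those at 1 to 2 Mb 20 of 32 (0.151), and of those on other chromosomes 23.02% (0.0722). Within 1 Mb, 4 of the 9 called genes went up with Npy and 5 went down. Around Pyy 35 of 63 genes within 1 Mb were called (55.6%, against 40.7% on other chromosomes), with a median absolute r of 0.129 against 0.0955. Around Ppy the corresponding values were 33 of 62 (53.2%, against 34.1%), 0.130 and 0.0874. Absolute r of at least 0.3 was found in 4 of the 16 genes near Npy (25%), 3 of the 63 near Pyy (4.76%) and none of the 62 near Ppy. On other chromosomes the shares were 0.25%, 5.53% and 2.13%, so the shares near Pyy and Ppy were not above those.

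**Figure D4:**
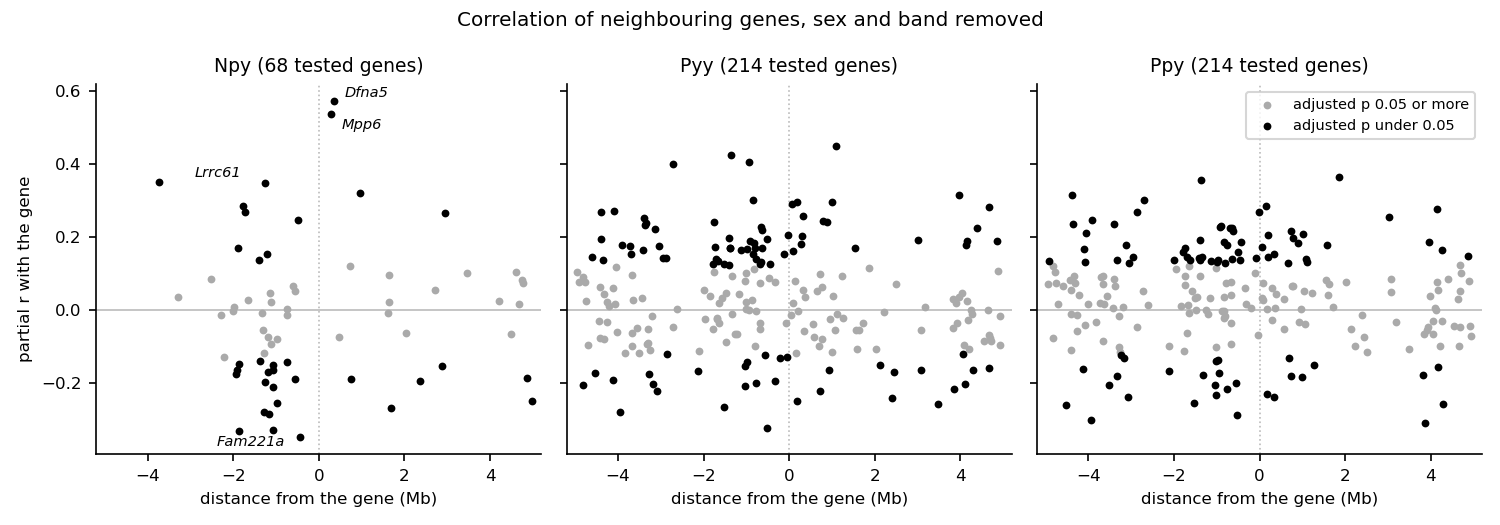
Partial r of each tested gene within 5 Mb with Npy, Pyy and Ppy, against its distance from the gene in megabases, negative before and positive after it on the chromosome. Black points have an adjusted p under 0.05. Dfna5 and Mpp6 stand highest beside Npy at 0.570 and 0.536, and no gene near Pyy or Ppy reaches that height.

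Beyond its region, the genes of highest r with Npy were Prkab1, a regulatory subunit of AMP-activated protein kinase (r = 0.397), Trh, the thyrotropin-releasing hormone gene (0.353), Crybg3 (0.346), the deubiquitinase gene Usp11 (0.342), Park7, which protects against oxidative stress (0.337), Zfp422 (0.327) and Ank1, an ankyrin of the membrane skeleton (0.326). Trh and Zfp422 lie on chromosome 6 as well, 42.41 and 66.79 Mb away. The lowest were Clcn5, an endosomal chloride-proton exchanger (-0.393), the zinc importer Slc39a10 (-0.331) and Gc, the vitamin D binding protein and an alpha cell marker (-0.325). Gc was the 1 alpha cell marker called negative with Npy, while 3 of the 8 were called positive (median r of the list 0.117). With Pyy and Ppy the r of Prkab1 was 0.0809 and 0.125, that of Trh 0.0932 and 0.196, and that of Crybg3 -0.0635 and 0.0716. The corresponding values were 0.190 and 0.311 for Usp11, 0.108 and 0.187 for Park7, 0.0908 and 0.191 for Zfp422 and 0.0781 and 0.106 for Ank1. For the low genes they were -0.0827 and -0.137 for Clcn5, -0.149 and -0.229 for Slc39a10 and -0.0927 and -0.214 for Gc. None of these genes was among the 10 of highest or 5 of lowest r with the other 2 hormones.

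Among the leading genes of Pyy and of Ppy were regulators and products of non-beta endocrine cells. Apart from Ppy itself, Irx1, a homeobox factor of alpha cells, led for Pyy at 0.662, with 0.460 for Ppy and 0.133 for Npy. Ffar4, a receptor for long-chain fatty acids, had 0.546 with Pyy and 0.477 with Ppy, and Id1, an inhibitor of basic helix-loop-helix factors, had 0.604 and 0.447. The somatostatin gene Sst had 0.604 with Pyy and 0.412 with Ppy, and Rbp4, the retinol-binding protein and a delta cell marker, had 0.501 and 0.447. Among the 10 genes of highest r with Ppy, and not among those of Pyy, stood Tspan8, a tetraspanin (0.522 with Ppy, 0.437 with Pyy), the mRNA export factor gene Alyref (0.457 and 0.447), Sgce (0.456 and 0.437) and Galnt13 (0.449 and 0.403). Among these genes, the values with the 2 hormones were closest for Alyref, Sgce and Galnt13 and farthest apart for Irx1, Id1 and Sst. High with Pyy, and lower with Ppy, stood also Snrpb of the splicing machinery (0.604 with Pyy, 0.44 with Ppy). The same held for the RNA-binding protein gene Rbm42 (0.574 and 0.332) and Gnas, the stimulatory G protein subunit (0.546 and 0.352). It also held for the mitochondrial ribosome gene Mrpl52 (0.539 and 0.2796) and for Irf2bp1 (0.538 and 0.2997).

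Some of these values moved with the GC index. With it also removed, Irx1 had r = 0.622 with Pyy. Mrpl52, Gnas and Irf2bp1 stood at 0.457, 0.469 and 0.477 with Pyy, and Tspan8 at 0.564 with Ppy. The lowest r with Pyy were in Rab5a, of early endosomes (-0.471), Sec63, of the endoplasmic reticulum import machinery (-0.461), Mboat2 (-0.437), the mitochondrial RNA-binding protein gene Grsf1 (-0.435) and Trak2, a motor adaptor for mitochondria (-0.432). With the GC index removed Rab5a stood at -0.375 and Grsf1 at -0.339. The lowest with Ppy were Vwa8 (-0.398), the muscle phosphofructokinase gene Pfkm (-0.383), the signalling kinase gene Irak1 (-0.379), Klhl24 (-0.375) and Mia3, of the secretory pathway (-0.375).

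Of the Y receptor genes, Npy1r was followed, and the other 4 symbols searched were not found in the deposited count table. It did not pass the filter on low counts. Its level was 0, 0.0969 and 0.293 CPM (lowest, median, highest) in females, against 0, 0.0994 and 0.758 CPM in males, and the sexes overlapped.

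Among 10 genes that process or inactivate such peptides, 9 were tested. Pcsk1n, an inhibitor of the prohormone convertase PC1, went with Pyy (r = 0.498, and 0.415 with the GC index removed) and with Ppy (0.206). Cpe, the carboxypeptidase that trims the cleaved hormones, went against both (-0.331 with Pyy, -0.275 with Ppy). Pcsk1, the convertase itself, had 0.184 with Npy and -0.155 with Pyy, and with the GC index removed its r with Pyy was -0.0686. In all, 1 was called positive and 3 negative with Npy, 2 and 4 with Pyy, and 1 and 2 with Ppy, where 23.2%, 40.9% and 34.3% of all genes were called, so the share for Ppy was about that of all genes. By sex, Dpp4, which clips peptide YY (0.15, adjusted p = 0.0308), and Pcsk2 (0.04, adjusted p = 0.0396) were higher in females. Cpe (-0.22, adjusted p = 7.74e-17) and Prcp (-0.08, adjusted p = 0.0445) were lower in females (edgeR), and the other 5 tested were not called, where 50.6% of all genes were.

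The alpha, delta, human gamma and transcription factor lists had higher median r with Pyy and Ppy than with Npy, given here side by side as a description. Their counts stand against 40.9% of all genes called with Pyy, 34.3% with Ppy and 23.2% with Npy. All 8 alpha cell markers were tested: 7 were called positive and none negative with Pyy (median r 0.439), 5 positive and 1 negative with Ppy (0.392), and 3 positive and 1 negative with Npy (0.117). The glucagon gene Gcg had 0.428 with Pyy, 0.385 with Ppy and 0.141 with Npy. Of 5 delta markers, 4 were positive with each of the 3, with medians of 0.372 for Pyy, 0.348 for Ppy and 0.192 for Npy, and the remaining marker was called negative with Ppy alone. Of 7 human gamma cell markers tested, 6 were positive and 1 negative with Pyy and with Ppy (medians 0.240 and 0.193), and 1 was positive with Npy (median -0.0369). Sertm1 was the highest of them, at 0.351 with Pyy and 0.364 with Ppy. Of 21 endocrine transcription factors, 14 were positive and 2 negative with Pyy (median 0.265), 11 and 1 with Ppy (0.169), and 4 and 0 with Npy (0.0599). Fev, a serotonin-lineage factor of endocrine progenitors, had 0.580 with Pyy and 0.480 with Ppy, and Neurog3, the factor that starts endocrine development, had 0.432 and 0.252. Some genes stand in more than a single list, so the lists are not independent.

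The median r of the beta cell markers was 0.0771 with Npy, -0.0385 with Pyy and -0.0848 with Ppy. Of 13 beta markers, 3 were positive and none negative with Npy, which was about the share of all genes called (23.2%). Those with the largest r were the glucose transporter gene Slc2a2 (0.267) and the factor gene Mafa (0.176). With Pyy 3 were positive and 5 negative, and with Ppy 1 and 2, where 40.9% and 34.3% of all genes were called. The count for Ppy was below that share. Slc2a2 had -0.179 with Pyy, and Mafa had 0.456 with Pyy, which was 0.348 with the GC index removed. Of 7 genes tested that mark immature or dedifferentiated beta cells, 3 were negative with Npy: Aldh1a3, a retinaldehyde dehydrogenase (-0.323), Serpina7, the thyroxine-binding globulin gene (-0.301), and the gastrin gene Gast (-0.224). With Pyy 3 of the 7 were positive and 1 negative, and with Ppy 3 and 3. Serpina7 was called negative with Pyy (-0.187) and Ppy (-0.273) as well. Among other peptide genes, 20 of 30 were tested, of which 7 were positive and 2 negative with Npy, 9 and 2 with Pyy, and 9 and 2 with Ppy. Nucb2, the nesfatin precursor, was negative with all 3 (-0.205 with Npy, -0.285 with Pyy, -0.336 with Ppy). Since Npy is also a peptide of sympathetic nerves, their markers were read beside it: of 6 listed, 2 passed the filter, Th (-0.0721) and Prph (0.125), and neither was called with Npy.

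**Figure D5:**
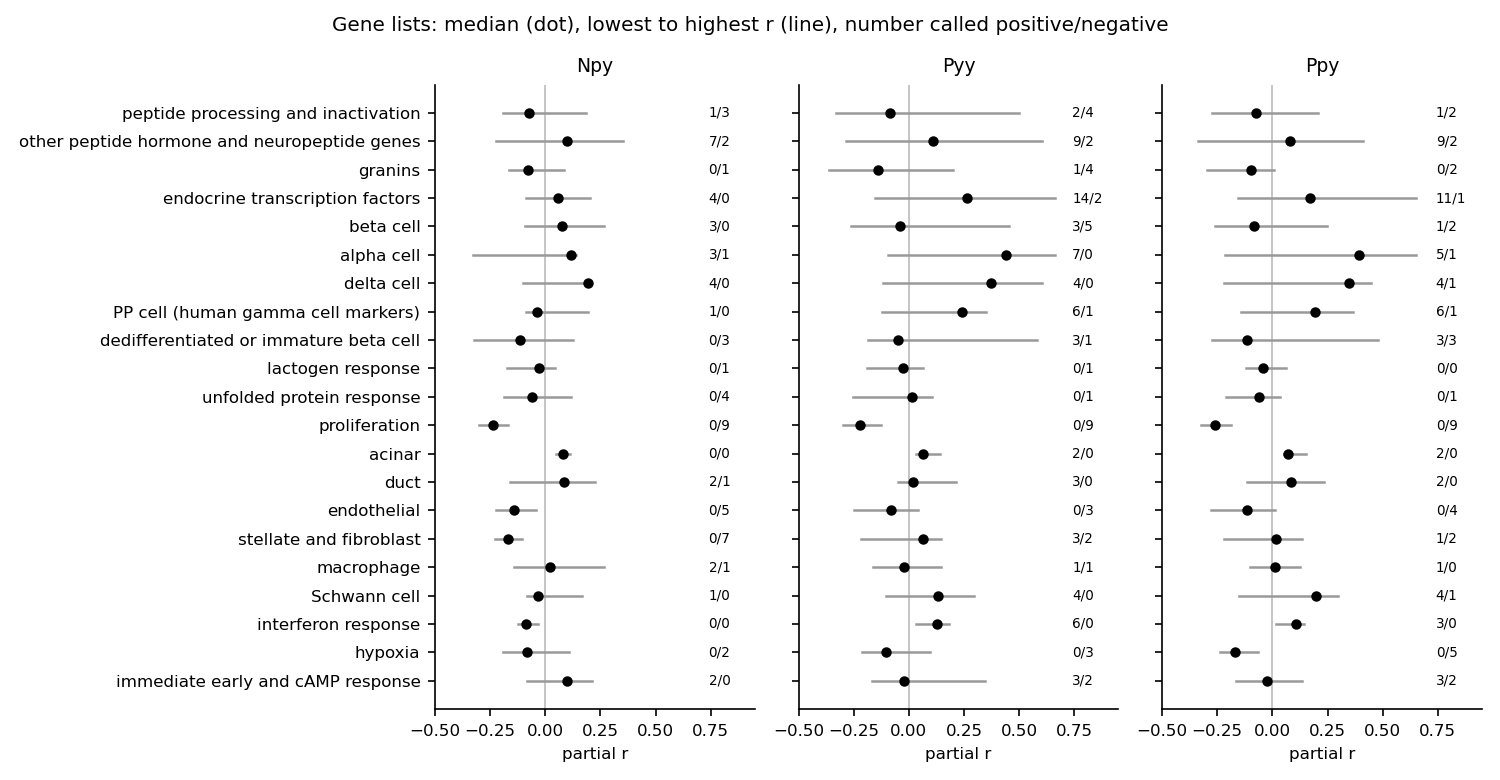
Partial r of the tested members of 21 gene lists with Npy, Pyy and Ppy: a dot at the median, a line from the lowest to the highest member, and the number of members called positive and negative at the right. Alpha, delta and transcription factor lists lie to the right for Pyy and Ppy, with alpha medians of 0.439 and 0.392 against 0.117 for Npy, and the proliferation list lies to the left for all 3.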

How the data were processed

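The members and gene lists, and the alternatives, were chosen with earlier results of these data known. The authors deposited expected counts per gene, estimated from the reads and not scaled between libraries. They also deposited log2 values with stabilised variance. Per the submitters' processing notes, GRCm38 and DESeq2 were used; aligner, counter and strand setting: not given in the sources used here. Libraries were poly(A)-selected and received ERCC control RNA, per the labels' protocols. How the deposited log2 values were made, and whether differences between bands were removed, is not given in those sources.

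Sex and band were taken from the titles. Expected counts were rounded. Genes were kept by filterByExpr by sex, which left 16927. Levels are CPM of the total count. Depths are in the report; for Npy the count was 1 to 8199 per library, and counting error is therefore large only in its lowest libraries. The sex comparison used the quasi-likelihood F test of edgeR 4.0.16 with TMM factors, the band as covariate and a threshold of 0.05, in R 4.3.3. Spread and correlates were tested with limma 3.58.1 on log2 CPM (prior count 2), the correlates with sex and band removed. Pairs were tested by two-sided permutation within sex and band (100000 resamples; Python 3.11.15, NumPy 2.4.6, SciPy 1.17.1). The functions were tested on simulated data.

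Named correlates are, for each gene, the 10 of highest and 5 of lowest r among genes averaging 2 CPM or more whose sign was shared by the 8 combinations, without placeholder symbols, up to 4 members of each list by absolute r, and the 3 nearest tested genes on each side; Pcsk2 and Prcp were named because they passed the sex test. Not every gene so picked is printed, and some are not reported here. Alternatives were DESeq2 1.42.0, limma-voom, RLE factors, no filter, prior count 0.5, the deposited log2 values, list scores or the GC index as covariates, single bands and sexes, and libraries left out. Those on the GC index, the Pyy to Ppy ratio, the difference of r between sexes and the 2 deepest libraries were added after the data had been seen. Protein sequences were not used here.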

Additional observations from a re-analysis of the deposited data

Results flagged for a closer look

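The correlations between the 3 genes were lower in females than in males for every pair, by a permutation of sex within bands that was added after the data had been seen. For Npy and Ppy, r was -0.145 in females and 0.139 in males, a difference of -0.284 (permutation p = 0.00605, adjusted p = 0.0181 over 3 pairs). For Npy and Pyy it was -0.0965 in females and 0.106 in males, a difference of -0.203 (permutation p = 0.0482, adjusted p = 0.0482). For Pyy and Ppy it was 0.603 in females and 0.718 in males, a difference of -0.115 (permutation p = 0.0411, adjusted p = 0.0482). For these values each level had been scaled to the same SD within each combination of sex and band. Without that scaling r for Pyy and Ppy was 0.640 in females and 0.717 in males. Unscaled r for Npy and Pyy was -0.101 and 0.109, and for Npy and Ppy -0.146 and 0.142. The differences between unscaled values were not tested. On ranks the adjusted p-values were 0.168, 0.205 and 0.205, and with the 4 list scores also removed 0.471, 0.794 and 0.794 (permutation tests). Without the 2 deepest libraries, both male and of band 1, the difference for Npy and Ppy was -0.262 (adjusted p = 0.0327), and those for Npy and Pyy and for Pyy and Ppy no longer passed (-0.183 and -0.100, adjusted p = 0.0792 for each). The part of these libraries and of the cell type markers in the differences was not tested further.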

How the results depend on the processing

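The sex differences of the 3 genes kept their direction and call with RLE factors, no filter, DESeq2, limma-voom, the deposited log2 values, no covariate, the GC index, and without the libraries of unclear Xist or the 2 deepest. The size for Npy moved by over 1.5 times with limma-voom (0.93, against 0.54). Single bands lost the call for Npy in bands 1, 2 and 3 (0.62, 0.27 and 0.31) and for Ppy in bands 1 and 3 (0.22 and 0.36). With 4 list scores Pyy gave 0.11 and Ppy -0.0079, a reversed sign. The band difference of Pyy was not called without band 4 (adjusted p = 0.335) or in the deposited values (adjusted p = 1, limma).

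The r of Npy with Pyy, near 0 and not called, changed sign with 4 list scores removed (-0.0922), in females (-0.101) and in bands 2 and 4 (-0.0635 and -0.0761). That of Npy with Ppy did so with 4 list scores (-0.0497), without the 2 farthest libraries (-9.7e-06), in females (-0.146) and in bands 2 and 4 (-0.0379 and -0.130).

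The differences of r by sex were the least stable. For Pyy with Ppy the call was lost with the deposited values (-0.115), ranks (-0.0799), the GC index (-0.112), 4 list scores (-0.0178), without the 2 deepest libraries (-0.100) and in bands 1 and 3 (-0.0592 and -0.104), and band 2 reversed it (0.0930). For Npy with Pyy it was lost with the deposited values (-0.187), ranks (-0.129), the GC index (-0.202), 4 list scores (-0.0314), without the 2 deepest libraries (-0.183) and in bands 1 and 2 (-0.110 and -0.334), and band 4 reversed it (0.172). For Npy with Ppy it was lost with ranks (-0.194), 4 list scores (-0.146) and in bands 1, 2 and 4 (-0.190, -0.488 and -0.0225). The sex difference of the Pyy to Ppy ratio lost its call in bands 2 and 3 (0.061 and 0.18) and with 4 list scores (0.11).

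The spread of Npy by sex, not called in any setting, was -0.08 on the deposited values, against -0.32 on log2 CPM. Over the named correlates and all alternatives, 1711 values kept sign and call or were not called in either setting, 30 lost the call and 16 gained it. Among values called in the main fit or the alternative, 1 changed sign, that of G6pc3 with Pyy when the GC index was also removed (-0.0448). Changes of sign in values not called in either setting were not counted, such as Th with Pyy (0.0114, and -0.0182 with the GC index removed). The causes were not tested. No paired analysis was possible because each mouse number belongs to a single mouse, so no numbers are shared between the sexes. Low counts limit the lowest Npy values, and single bands hold 91 to 99 mice.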

Other observations

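Lists of genes outside the endocrine lineages were read against the share of all genes called, which was 23.2% with Npy, 40.9% with Pyy and 34.3% with Ppy (limma). All 9 proliferation genes tested were called negative with each of them. The median r was -0.237 for Npy, -0.221 for Pyy and -0.259 for Ppy. In the sex comparison all 9 were lower in females (median log2 fold change -0.81, edgeR), where 28.8% of all genes were called lower. Of 8 stellate and fibroblast markers, 7 were negative with Npy (median -0.168), whereas 3 were positive and 2 negative with Pyy and 1 and 2 with Ppy. With Ppy these calls were about as frequent as over all genes. Endothelial markers were called negative in 5 of 8 with Npy, 3 of 8 with Pyy and 4 of 8 with Ppy, and none was positive. Their count with Pyy was below the share of all genes. Of 8 interferon response genes, 6 were positive with Pyy and 3 with Ppy (medians 0.128 and 0.109), and none was called with Npy (median -0.0884). The interferon count with Ppy was about the share of all genes. Of 7 hypoxia genes, 5 were negative with Ppy, 3 with Pyy and 2 with Npy, and the counts with Pyy and Npy were about the share of all genes. The unfolded protein response genes were negative in 4 of 12 with Npy and in 1 of 12 with each of the others, the last 2 below the share of all genes. Acinar markers were called in 0 of 13 with Npy and 2 of 13 with each of the others, below the share of all genes in each case.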
